A study of Mustela putorius furo with 10 samples.

Results

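The genes described here encode the aminoacyl-tRNA synthetases of the cytosol and of mitochondria, the TRMT, NSUN, PUS and Elongator genes of tRNA modification, and XPOT, in peripheral blood mononuclear cells (PBMC) of ferrets kept in the cold or at room temperature. They were chosen by symbol from the RefSeq gene table of the ferret, through the accession of each target sequence on the array. The table holds 70 such genes, of which 60 were matched on the array and 58 passed the filter on dim probes, out of 26303 genes and target sequences tested (9276 named genes and 17027 target sequences without a gene name). The 58 are 16 cytosolic synthetases, 16 mitochondrial synthetases, 12 TRMT genes, 3 NSUN genes, 4 PUS genes, 6 Elongator genes and XPOT. TRMT5 had Cy3 well above background on 0 arrays and TRMT10B on at most 2, so both were left out. CARS2, LARS1, YARS1, NSUN2, NSUN6, NSUN7, PUS1, PUS7, TRMT13 and TRMT1L were not matched by accession and were not analysed here.

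Male ferrets (Mustela putorius furo) of 3 months of age were acclimatised to 22 °C (control, n = 6 arrays) or to 4 °C for 1 week (cold, n = 4 arrays), with 1 array per ferret. The cold animals were housed singly; how the controls were housed is not given in the sources used here. PBMC, the lymphocytes and monocytes of blood recovered on a Ficoll gradient, were hybridised to a custom 2-colour Agilent array. Cy3 carried the RNA of 1 ferret and Cy5 a common reference pool, which the labels give as PBMC together with other tissues, so every level below is the log2 ratio of the ferret to that pool, and every change is the mean log2 ratio of the cold group less that of the control group.

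An aminoacyl-tRNA synthetase joins an amino acid to its tRNA, the step that sets the genetic code. Most amino acids have one nuclear gene for the cytosolic enzyme, with a symbol ending in 1, and another for the mitochondrial enzyme, with a symbol ending in 2. Both kinds are made in the cytosol, and the mitochondrial kind is imported to serve the small genome of that organelle. Before a tRNA is charged it is trimmed, chemically modified by methyltransferases, pseudouridine synthases and the Elongator complex, and carried out of the nucleus by exportin-t, the product of XPOT. These genes are expressed in every nucleated cell, and resting lymphocytes raise them when they are activated to grow.

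In the cold group 22 of the 25 genes of tRNA modification had a lower mean than in the control group, as had 12 of the 16 mitochondrial synthetases and 8 of the 16 cytosolic synthetases. Of the 58 genes, 43 had a lower mean and 15 a higher mean in the cold group, which makes 74.1% lower beside 52.0% of all genes tested. The median change was -0.058 on the log2 scale for the 58 genes and -0.011 for all genes. No gene of the 58 passed an adjusted p of 0.05 (limma, Benjamini-Hochberg adjustment over all genes), and of all genes tested 0% did. Leaving out 1 array changed that share to 4.84% (1272 genes) without cold replicate 2, 2.41% (633 genes) without control replicate 5 and 0.0456% (12 genes) without cold replicate 1, with 0 of the 58 among them each time. It was 2.81% (740 genes) in the Cy3 channel alone, 0.533% (115 genes) over genes well above background on all arrays and 0.019% (5 genes) with slide position as a block, again with 0 of the 58. At an unadjusted limma p under 0.01, the threshold of the study's methods, 2 of the 58 were lower in the cold group, NSUN4 and XPOT, and 0 were higher, beside 5.21% of all genes. Those 2 are 3.45% of the 58 genes, beside 3.43% of all genes lower at that threshold. At p under 0.05, 7 of the 58 were lower (12.1%, beside 12.5% of all genes), and 0 were higher, beside 12.2% of all genes. Without cold replicate 2 the number lower at p under 0.05 was 12 (20.7%, beside 16.3% of all genes). Other ways of scaling the arrays gave 22 of 58 after median centring (37.9%, beside 26.4% of all genes), 12 in the authors' value table (20.7%, beside 11.2%), 10 with the processed intensities (17.2%, beside 12%) and 10 in the Cy3 channel alone (17.2%, beside 12.8%). The groups of arrays did not overlap for NSUN4 and PUS7L, both lower in the cold group, which is 3.45% of the 58 genes beside 2.15% of all genes, and 0 were apart in the other direction, beside 3.07%. With the ratios normalised by loess, the shares of lower calls at p under 0.01 and under 0.05 were thus near those of all genes. PBMC are a mixture, and fewer cells of a type and less RNA per cell cannot be told apart in these values.

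**Figure D1:**
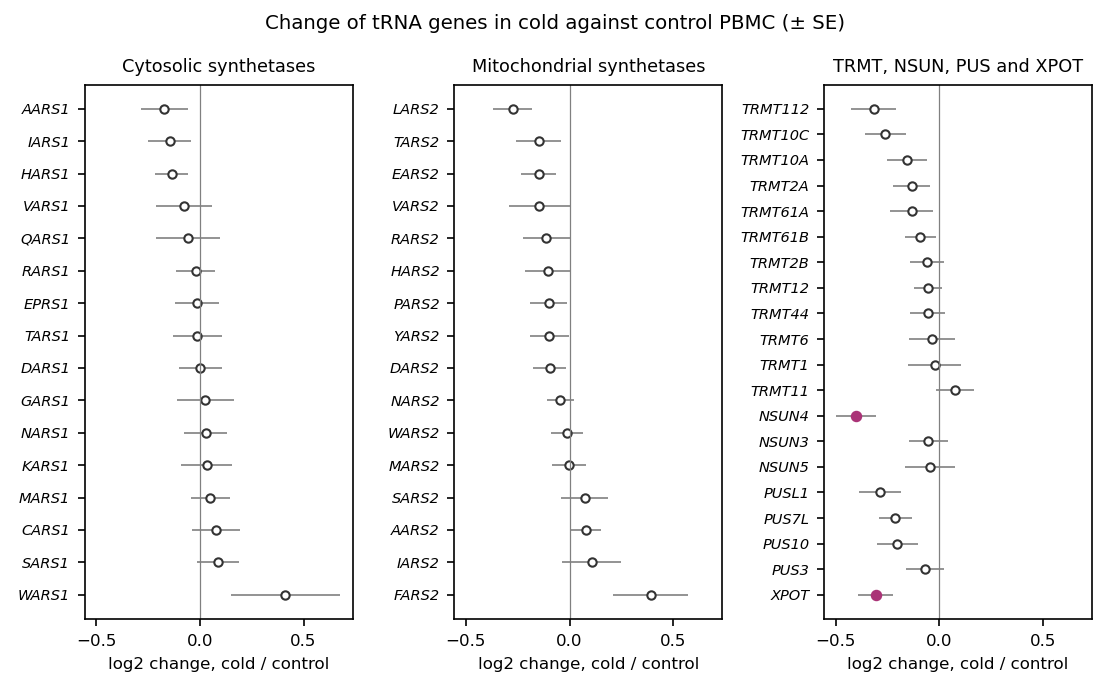
Log2 change in cold (n = 4) against control (n = 6) ferrets for 52 of the 58 genes (all but the Elongator genes), on the horizontal axis, with bars of 1 standard error from limma; filled points have an unadjusted p under 0.01. The cytosolic synthetases lie on both sides of 0, 18 of the 19 modification genes drawn lie below it, and the filled points are NSUN4 at -0.40 and XPOT at -0.31.

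The markers of blood cell types moved between the groups as well. All 8 T cell markers were measured, 7 were lower in the cold group and their median change was -0.50. The mean log2 ratio of the T cell list ranged from 0.085 to 0.37 on the control arrays and from -0.72 to 0.20 on the cold arrays, with cold replicate 3 the lowest. All 6 measured neutrophil markers of 8 listed were higher in the cold group, with a range of 0.52 to 1.16 in control and 1.29 to 1.78 in cold ferrets. All 4 measured platelet markers of 6 were higher (control -0.019 to 1.55, cold 0.94 to 2.24), and all 4 measured red cell markers of 7 were lower (control 0.18 to 1.12, cold -0.85 to -0.055). Of the monocyte markers 5 of 6 were measured and 4 were higher (control -0.25 to 0.42, cold 0.15 to 0.72). The B cell list (4 of 6 measured, 3 lower; control -0.13 to 1.26, cold 0.27 to 0.92) and the NK or cytotoxic list (3 of 5 measured, 3 higher; control 0.18 to 1.19, cold 0.038 to 1.12) overlapped. Among defining markers, PAX5 of B cells had Cy3 well above background on 2 arrays, and MS4A1, GZMB, KLRB1, FCGR1A, ELANE, LTF, AHSP, HEMGN, GYPC, PF4 and PPBP were not matched. The part of these cell markers in the changes of the tRNA genes was not tested.

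Among the cytosolic synthetases, 8 of 16 had a lower and 8 a higher mean in the cold group. Their median change was -0.0062, with 0 of 16 at an unadjusted p under 0.05. The symbols chosen leave out the cytosolic phenylalanine enzyme, whose subunits FARSA (-0.12) and FARSB (-0.16) both had a lower mean. The median of the 16 lay between -0.040 and 0.033 when an array was left out, so its sign depended on single arrays. Changes ran from -0.17 for AARS1 (alanine; SE 0.12, adjusted p 0.377; -0.11 without cold replicate 3) to 0.41 for WARS1 (tryptophan). The multisynthetase complex of the cytosol holds, among others, the fused glutamate and proline enzyme EPRS1, KARS1 for lysine and QARS1 for glutamine. EPRS1 changed by -0.014 (SE 0.10), KARS1 by 0.033 (SE 0.12) and QARS1 by -0.057 (SE 0.16). GARS1, which like KARS1 serves the cytosol and mitochondria from 1 gene, changed by 0.027 (SE 0.14). In each of these 4 genes the arrays of both groups overlapped, each change was smaller than its standard error, and each changed sign when single arrays were left out.

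WARS1 charges tryptophan and is known as a gene that interferon-gamma induces. Its log2 ratio in the control ferrets had a lowest value of -0.42, a median of -0.17 and a highest value of -0.077. In the cold ferrets it was -0.31, -0.02, -0.17 and 1.32. Cold replicate 4 stood above the other 9 arrays, and the other 3 cold ferrets lay among or just above the controls. All 4 probes of WARS1 were high on that array, at 1.22, 1.20, 1.65 and 1.20. The change of 0.41 (SE 0.27, limma p 0.148, adjusted p 0.353, exact two-sided permutation p 0.148) was 0.043 without cold replicate 4, so that 1 ferret made nearly all of it.

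Among the mitochondrial synthetases, 12 of 16 had a lower and 4 a higher mean in the cold group, and the median change was -0.097. The median was -0.053 without cold replicate 1, -0.057 without cold replicate 3 and -0.063 without cold replicate 4, with 10 to 12 of the 16 lower. WARS2 (-0.012), YARS2 (-0.098) and SARS2 (0.073) were each measured with 1 probe, so their values are weak. Cy3 of WARS2 was well above background on 4 arrays. LARS2, the mitochondrial leucine enzyme, was the only one of the 16 at an unadjusted p under 0.05. Its log2 ratio was 0.17, 0.09, 0.19, 0.03, -0.14 and -0.09 in the control and -0.36, -0.05, -0.32 and -0.21 in the cold ferrets. Of the cold ferrets, 3 lay below every control, and cold replicate 2 lay within the control range. The change was -0.27 (SE 0.095, limma p 0.0142, adjusted p 0.127, exact permutation p 0.0238), or -17.3% on the linear scale, and all 12 of its probes were lower.

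The mitochondrial enzymes for threonine (TARS2, -0.15), glutamate (EARS2, -0.15), valine (VARS2, -0.14) and arginine (RARS2, -0.11) followed, each with overlapping groups and an adjusted p between 0.302 and 0.575. Single arrays moved these changes: without cold replicate 3 TARS2 was -0.083 and RARS2 -0.062, and without cold replicate 1 VARS2 was -0.058. Without cold replicate 2 they were larger, at -0.24 for TARS2, -0.25 for RARS2 and -0.26 for VARS2. EARS2 depended on the scaling. It was -0.56 (limma p 0.00417) with the processed intensities, -0.61 (p 0.00384) after median centring and -0.35 (p 0.0147) in the Cy3 channel alone. The all-gene medians there were -0.099, -0.43 and -0.038. At the other end, FARS2, the phenylalanine enzyme, changed by 0.39 (SE 0.18, limma p 0.0546, adjusted p 0.211). FARS2 was 0.01, 0.21, 0.67, 0.68, 0.47 and 0.82 in the control and 0.98, 0.43, 1.17 and 0.90 in the cold ferrets. Control replicates 1 and 2 were the low values, and cold replicate 2 lay within the control range. Its 12 probes come from 3 target sequences and were not alike. In 9 of them the change was 0.32 to 0.64 and in the other 3, 1 for each sequence, 0.052 to 0.12.

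The design sets the cytosolic enzymes against the mitochondrial ones within each ferret. The median log2 ratio of the cytosolic synthetases ranged from -0.10 to 0.097 on the control arrays and from -0.079 to 0.14 on the cold arrays. That of the mitochondrial synthetases ranged from -0.0050 to 0.051 and from -0.14 to 0.073, with cold replicate 2 the one cold ferret above 0. The cytosolic median less the mitochondrial median was -0.12 to 0.10 in control ferrets (mean -0.032 ± 0.084 SD, n = 6) and 0.062 to 0.16 in cold ferrets (mean 0.095 ± 0.047 SD, n = 4). The cold ferrets were thus at the upper end, and control replicate 3, at 0.10, lay among them.

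For 11 amino acids both enzymes were measured under paired symbols, ending in 1 and 2. The change of the mitochondrial enzyme was below that of the cytosolic enzyme for 8 and above it for 3. The median difference was -0.069, and leaving out cold replicate 1 made it -0.021 and cold replicate 2, -0.025. The mitochondrial enzyme was the lower for 7 to 9 of the 11 when an array was left out. For tryptophan the difference was -0.42, which rests on the single high WARS1 array. For threonine it was -0.14 (TARS2 -0.15, TARS1 -0.013). For aspartate it was -0.098 and for arginine -0.094. It ran the other way for isoleucine (0.25; IARS2 0.11, or 0.0087 without cold replicate 2, IARS1 -0.14), alanine (0.25; AARS2 0.077, AARS1 -0.17) and histidine (0.033). None of these 22 genes had an unadjusted p under 0.05. Other enzymes lack such paired symbols. For phenylalanine, FARS2 changed by 0.39, above FARSA (-0.12) and FARSB (-0.16), the subunits of the cytosolic enzyme. EARS2 (-0.15) and PARS2 (-0.10) were below EPRS1 (-0.014), which serves glutamate and proline.

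The order of the cytosolic and mitochondrial enzymes depended on how the arrays were scaled. The cytosolic synthetases gave bright spots, with a median over genes of 11.7 for the mean log2 Cy3 intensity, beside 8.90 for the mitochondrial enzymes. With the ratios normalised by loess within each array, the change of the 58 genes was unrelated to brightness (Pearson r -0.03, Spearman rho -0.08, over 58 genes, which share arrays and are not independent). In the authors' deposited value table the brighter genes were lower in the cold group (r -0.83), and with each array centred on its median likewise (r -0.88). The cytosolic median was then -0.37 in the value table and -0.82 after median centring, and the mitochondrial median 0.095 and -0.33, beside all-gene medians of 0.012 and -0.43. Relative to all genes, the cytosolic enzymes were thus 0.38 and 0.40 lower and the mitochondrial ones 0.083 and 0.093 higher, the reverse of the order above. The mitochondrial enzyme was the lower in 3 of the 11 pairs with matching symbols in each of these settings. The Cy3 channel alone, with no reference in the value, gave a cytosolic median of 0.0094 and a mitochondrial median of -0.10, with r -0.003 against brightness. The reference channel was dim on some arrays, with a median Cy5 intensity of 44 to 80 in the control and 48 to 152 in the cold group.

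**Figure D2:**
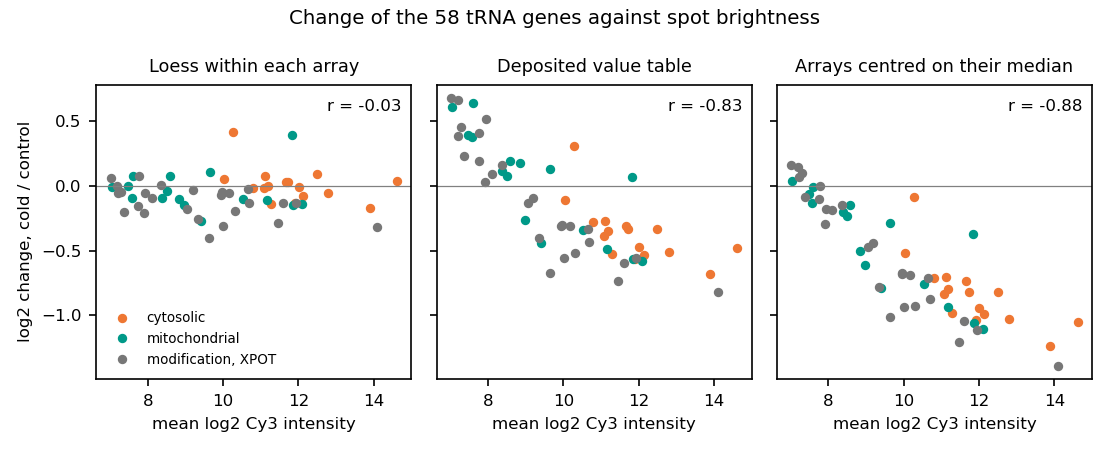
Log2 change in cold against control ferrets for the 58 genes (vertical axis) against the mean log2 Cy3 intensity of each gene (horizontal axis), under loess within each array, in the authors' deposited value table and with each array centred on its median. The changes lie along 0 in the first panel (r -0.03) and slope down with brightness in the other 2 (r -0.83 and -0.88), where the bright cytosolic synthetases lie low.

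Of the genes of tRNA modification, 22 of 25 had a lower mean in the cold group and 3 a higher mean, with a median change of -0.092. The 3 with a higher mean were TRMT11 (0.076), ELP2 (0.059) and ELP4 (0.0087). In the Cy3 channel alone these 3 were lower, at -0.12, -0.089 and -0.065, and of the 25 genes 21 were lower and 4 higher. The median log2 ratio of the 25 genes was 0.063 to 0.14 on the control arrays and -0.091 to 0.0051 on the cold arrays, so every cold ferret lay below every control in this ratio, while the median of all genes was 0.0098 to 0.038 and -0.0043 to 0.037. The groups overlapped in the Cy3 channel alone, where the median log2 intensity of the 25 genes was 9.09 to 9.33 in control and 8.98 to 9.26 in cold ferrets. There the mitochondrial synthetases were the set whose groups were apart, at 8.91 to 9.18 in control and 8.56 to 8.85 in cold ferrets. Leaving out each array in turn left 19 to 24 of the 25 genes lower. In the table that the authors deposited, 14 of 25 were lower, at a median change of -0.14, and the groups overlapped (9.22 to 9.35 in control, 9.01 to 9.24 in cold ferrets). The T cell, neutrophil, platelet and red cell markers given above moved between the same groups of arrays.

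**Figure D3:**
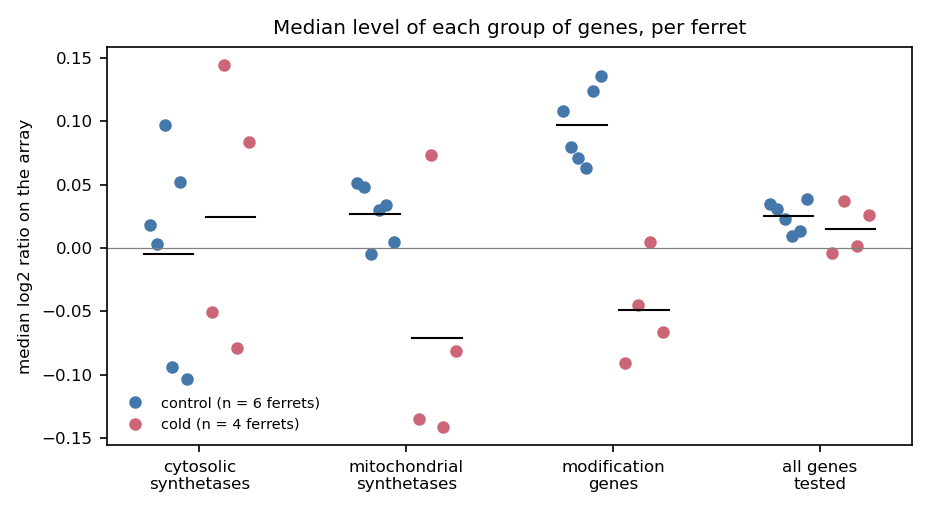
Median log2 ratio of ferret PBMC RNA to the reference pool (vertical axis) over the 16 cytosolic synthetases, the 16 mitochondrial synthetases, the 25 modification genes and all genes tested; each point is 1 ferret and each line the mean of a group. The modification genes of the 4 cold ferrets (-0.091 to 0.0051) lie below those of the 6 control ferrets (0.063 to 0.14), and the points of the other 3 sets overlap; in the Cy3 channel alone, not drawn, the modification genes overlap and the mitochondrial synthetases do not.

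The 3 measured NSUN genes methylate cytosine in RNA, and not all of it is tRNA. NSUN4 modifies the ribosomal RNA of mitochondria and takes part in the assembly of the mitochondrial ribosome. Its log2 ratio was 0.03, 0.02, 0.29, -0.13, -0.12 and 0.15 in the control ferrets and -0.37, -0.33, -0.49 and -0.25 in the cold ferrets. All 4 cold ferrets were below all 6 controls. The change was -0.40 (SE 0.097, limma p 0.00165, adjusted p 0.0736, exact permutation p 0.00952), or -24.2% on the linear scale. All 4 probes were lower, with changes of -0.49 to -0.34. Leaving out each array in turn gave changes between -0.44 and -0.35 with p between 0.00133 and 0.00643. In the Cy3 channel alone the change was -0.42 (p 0.0101). Its size depended on the scaling, at -0.74 with the processed intensities, -0.67 in the authors' value table and -1.01 after median centring. The all-gene medians there were -0.099, 0.012 and -0.43. NSUN3, which acts on a mitochondrial tRNA, changed by -0.053 (SE 0.093), and NSUN5, which acts on cytosolic ribosomal RNA, by -0.045 (SE 0.12), both with overlapping groups. Neither value was stable: leaving out cold replicate 4 made NSUN3 -0.14 and leaving out cold replicate 1 made it -0.012, and NSUN5 was -0.12 without control replicate 3 and 0.0088 without control replicate 4. In the Cy3 channel alone NSUN3 changed by 0.036 and NSUN5 by -0.20.

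XPOT carries mature tRNA out of the nucleus. It was -0.35, -0.49, -0.21, -0.31, -0.21 and -0.20 in the control ferrets and -0.48, -0.73, -0.63 and -0.56 in the cold ferrets. The cold ferrets were the low ones, and the groups met only where control replicate 2 lay just below cold replicate 1. The change was -0.31 (SE 0.085, limma p 0.00392, adjusted p 0.0904, exact permutation p 0.0143), or -19.2%, with all 4 probes lower. XPOT did not keep a p under 0.01 without cold replicate 2 (-0.26, p 0.0152) or cold replicate 3 (-0.30, p 0.0106). It also lost it with the processed intensities (-0.36, p 0.0432), in the Cy3 channel alone (-0.29, p 0.0327), with the median over probes (-0.31, p 0.0103) and with array weights (-0.26, p 0.0177).

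**Figure D4:**
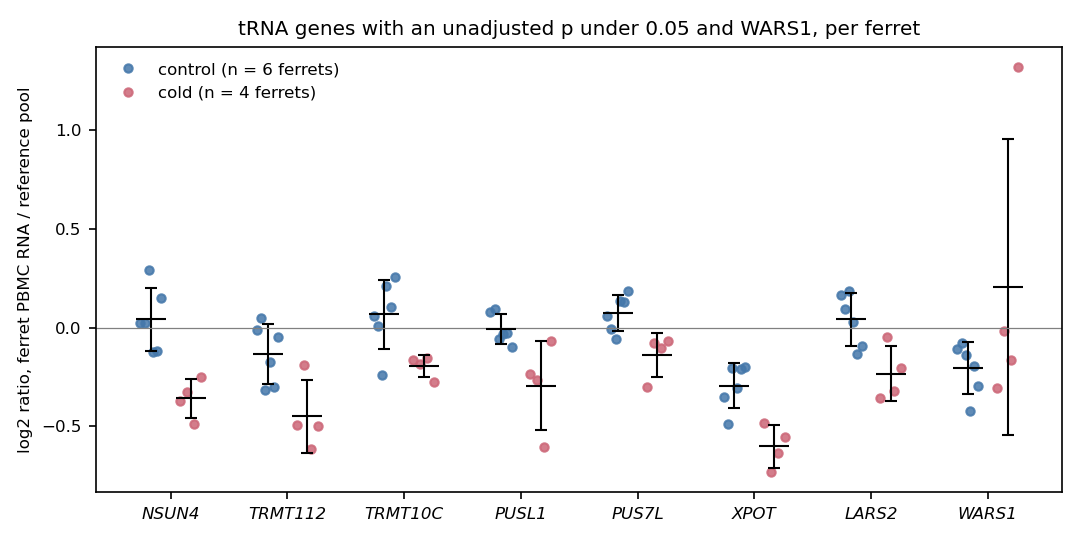
Log2 ratio of ferret PBMC RNA to the reference pool (vertical axis) for the 7 genes with an unadjusted p under 0.05 and for WARS1, with 1 point per ferret, the mean and the SD of each group (control n = 6, cold n = 4). The groups are apart for NSUN4 and, narrowly, PUS7L, and overlap in the others, and WARS1 has 1 cold ferret at 1.32.

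The TRMT genes are mostly tRNA methyltransferases, and 11 of the 12 had a lower mean in the cold group, with a median change of -0.076. Of the 12, 7 were lower and 5 higher in the authors' value table. TRMT112 is the activating partner shared by several methyltransferases of tRNA, ribosomal RNA and protein. It was -0.01, 0.05, -0.32, -0.17, -0.30 and -0.05 in control and -0.49, -0.19, -0.62 and -0.50 in cold ferrets. Cold replicates 1, 3 and 4 were below every control, and cold replicate 2 was above the lowest 2 controls. The change was -0.32 (SE 0.11, limma p 0.0135, adjusted p 0.125), or -19.7%, with all 4 probes lower. TRMT10C is a subunit of the mitochondrial enzyme that cuts the 5' end of precursor tRNA, and a methyltransferase of mitochondrial tRNA. It was 0.06, 0.01, -0.24, 0.21, 0.10 and 0.26 in control and -0.16, -0.18, -0.15 and -0.28 in cold ferrets. The cold ferrets lay close together, and control replicate 3 was the one control among them. The change was -0.26 (SE 0.098, limma p 0.0224, adjusted p 0.145), and 7 of 8 probes were lower.

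The paired subunits of the enzyme that methylates an adenosine in the T loop of cytosolic tRNA did not pass the test. TRMT6, the subunit that binds the tRNA, changed by -0.035 (SE 0.11; -0.11 without control replicate 3 and -0.0037 without control replicate 1), and TRMT61A, the catalytic subunit, by -0.13 (SE 0.10, limma p 0.228). Cold replicate 4 was the low value of TRMT61A, at -0.47, and without it the change was -0.049 (p 0.638). TRMT11, the catalytic partner of TRMT112 in a guanosine methylation, changed by 0.076 (SE 0.090), and by 0.032 to 0.12 when an array was left out. As a ratio to the reference, 5 of its 10 probes were lower. In the Cy3 channel alone TRMT11 changed by -0.12 (limma p 0.313). TRMT2A, a uridine methyltransferase, changed by -0.13 (p 0.165; -0.077 without control replicate 3) as a ratio to the reference and by -0.38 (p 0.00476, adjusted p 0.0762) in the Cy3 channel alone. It was the only one of the 58 genes at p under 0.01 there, beside 4.36% of all genes lower, and its reference channel was itself 0.22 lower on the cold arrays.

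All 4 PUS genes, which encode enzymes that turn uridine into pseudouridine, had a lower mean in the cold group, with a median change of -0.21. Without cold replicate 1 the median was -0.13, and 1 of the 4 in place of 2 had a p under 0.05. The processed intensities gave a median of -0.49, beside -0.099 for all genes. The authors' value table gave 2 lower and 2 higher, with PUS10 at 0.22 and PUS7L at 0.026. PUSL1 was 0.08, 0.10, -0.06, -0.03, -0.03 and -0.10 in control and -0.24, -0.26, -0.61 and -0.07 in cold ferrets. Cold replicate 3 was the lowest, and cold replicate 4 lay within the control range. The change was -0.29 (SE 0.10, limma p 0.0167, adjusted p 0.132, exact permutation p 0.00952), with all 8 probes lower, and -0.18 without cold replicate 3. PUS7L was 0.06, -0.01, -0.06, 0.13, 0.13 and 0.18 in control and -0.30, -0.08, -0.11 and -0.07 in cold ferrets. The groups did not overlap, though the lowest control (-0.060) and the highest cold ferret (-0.070) were close. The change was -0.21 (SE 0.080, limma p 0.0224, adjusted p 0.145), and all 20 probes, from 5 target sequences of 1 gene, were lower. In the Cy3 channel alone PUS7L changed by -0.14 (p 0.438). PUS10 changed by -0.20 (p 0.0686) and PUS3, which modifies the anticodon arm, by -0.070 (SE 0.092), both with overlapping groups. PUS10 was -0.44 on cold replicate 1 beside -0.13, 0.024 and 0.031 on the other cold arrays, and its change was -0.097 (p 0.250) without that array. In the Cy3 channel alone PUS10 changed by -0.0023 (p 0.988), and its reference channel was 0.16 higher on the cold arrays. PUS3 was -0.036 without cold replicate 1 and -0.12 without control replicate 3, and changed by -0.23 (p 0.0220) in the Cy3 channel alone.

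The 6 subunits of Elongator, which starts a side chain on the wobble uridine of the anticodon, gave a median change of -0.067, with 4 lower and 2 higher. That median depended on single arrays: it was -0.19 without cold replicate 1, with all 6 lower, -0.13 without control replicate 6, -0.10 without control replicate 2 and -0.041 without control replicate 5 or cold replicate 2, with 3 lower and 3 higher in each. In the authors' value table it was 0.012. The lowest change among those named was that of ELP6 (-0.20, SE 0.11, p 0.111), which was -0.10 (p 0.362) without cold replicate 3 and -0.28 (p 0.0370) without cold replicate 1. ELP3, the catalytic subunit, changed by -0.0028 (SE 0.32), with a spread in the cold group of 0.83 (SD, n = 4). It was measured with 1 probe that was well above background in 6 of 10 arrays, and ELP2 with 1 probe in 5 of 10 arrays, so both values are weak. ELP4 changed by 0.0087 (SE 0.066). The changes of ELP2, ELP3 and ELP4 each took the other sign when single arrays were left out.

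Other genes of the tRNA pathway, outside the symbols above, were counted by direction. Of 6 partners of the synthetases 4 were measured and all had a lower mean in the cold group, at a median of -0.15 and with 0 at p under 0.01. They were FARSA (-0.12) and FARSB (-0.16), the subunits of the cytosolic phenylalanine enzyme, and the scaffold proteins AIMP1 (-0.20) and EEF1E1 (-0.14). Of 45 other modification genes 29 were measured, 16 lower and 13 higher, at a median of -0.030 and with 0 at p under 0.01. The 29 include HSD17B10, the partner of TRMT10C, at -0.13 (p 0.39).

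Of 22 genes of tRNA processing 18 were measured, 11 lower and 7 higher, at a median of -0.029. TSEN34, a catalytic subunit of the tRNA splicing endonuclease, was the one at p under 0.01, beside 5.21% of all genes higher at that threshold. It was 0.55, 0.59, 0.66, 0.25, 0.68 and 0.39 in control and 0.75, 1.26, 1.65 and 1.06 in cold ferrets, without overlap (beside 3.07% of all genes), and changed by 0.66 (SE 0.16, adjusted p 0.0736). Of 22 genes of RNA polymerase III and its factors 10 were measured, 5 in each direction, at a median of -0.0087. GTF3C3, a subunit of the factor that binds tRNA gene promoters, was the one at p under 0.01 (beside 3.43% of all genes lower), at -0.28 (SE 0.068, adjusted p 0.0747), and its groups did not overlap (beside 2.15%). Of ATF4 and its known targets, a programme that includes many cytosolic synthetases, 12 of 14 were measured, 6 in each direction at a median of 0.016, with 0 at p under 0.01. ATF4 itself changed by 0.26 (SE 0.12) and ASNS, asparagine synthetase, by -0.021 (SE 0.10). On the lower side were PHGDH (-0.52, SE 0.26), TRIB3 (-0.45, SE 0.18) and PSAT1 (-0.37, SE 0.15). On the higher side were CHAC1 (0.24, SE 0.12) and CEBPB (0.23, SE 0.091).

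The standard error of the 58 changes ranged from 0.065 to 0.32 with a median of 0.10, beside median changes of -0.097 for the mitochondrial synthetases and -0.092 for the modification genes. Cy3 was well above background on every array for 51 of the 58 genes and Cy5 for 38, and 0 had a saturated spot. All 16 cytosolic synthetases were well above background in both channels on every array, beside 8 of the 16 mitochondrial enzymes and 13 of the 25 modification genes for Cy5. The Cy5 intensity, which should not differ between the groups for a common pool, was higher on the cold arrays for 42 of the 58 genes and lower for 16, at a median difference of 0.051 after quantile normalisation. The same share over all genes tested was not computed, so these counts do not tell whether the 58 genes differ from the rest.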

How the data were processed

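RNA of PBMC from 10 ferrets (6 control, 4 cold) was measured on 10 slides, scanned on 1 day. The authors deposited, for each array, spot intensities of both channels with quality flags, written by Agilent Feature Extraction 10.7.3.1. They also deposited log2 values for each of the 45328 target sequences, with scale, centring and direction not stated. Set against the scanner intensities, these follow log2 Cy3 less log2 Cy5 with constants per array and sequence, and they served as an alternative only.

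Median intensities were corrected by normexp (limma 3.58.1, R 4.3.3, offset 50), since no mean intensity was used here. Without control spots, log2 Cy3/Cy5 was then normalised within arrays by loess (span 0.3, 4 iterations). Spots flagged as outliers took part in the loess fit and were dropped before spots were averaged per probe. Probes entered when, on 4 arrays or more, a share of 0.5 or more of their spots had Cy3 flagged well above background, and they were averaged per gene. RefSeq's gene table (assembly ASM1176430v1.1) named 21104 target sequences as 12918 genes.

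The groups were compared by lmFit and eBayes over all 26303 genes with Benjamini-Hochberg adjustment, and single genes by an exact two-sided permutation test (210 splits, smallest possible p 0.00476). Each array is 1 ferret, and the number of arrays limits the precision. The fit was tested on simulated data. The members, role groups and lists were chosen with earlier results of these data known. Named were genes with p under 0.01, the lowest and highest change in each role group, and genes set for known roles (XPOT, NSUN4, WARS1, EPRS1, GARS1, KARS1, QARS1, TRMT112, TRMT6, TRMT61A, TRMT10C; LARS1 and NSUN2 were not matched). Further genes were named after their values were seen, and 1 gene is not reported here by name. Alternatives were the software's processed intensities, no background subtraction, median centring, Cy3 alone with quantile normalisation, the deposited log2 table, other filters, the median over probes, the methods' t-test, array weights, slide position and replicate number as blocks, and each array left out.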

Additional observations from a re-analysis of the deposited data

Results flagged for a closer look

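Among 40 groups of arrays tested for a stray value (the 20 named genes in 2 groups each), 4 held one, and chance marks about 1 in 20 groups. On control replicate 3, PUS3 had a log2 ratio of 0.01 and TRMT6 one of -0.43, both below the other 5 controls. On control replicate 6, KARS1 had a log2 ratio of -0.41, below the other 5 controls. On cold replicate 4, TRMT61A had a log2 ratio of -0.47, below the other 3 cold ferrets. Control replicate 3 also had the lowest share of spots with Cy3 well above background, 50.4% beside 58.0 to 63.5% on the other 9 arrays, and its part in these values was not tested. WARS1 on cold replicate 4 was not marked by the same measure.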

How the results depend on the processing

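The number of the 58 genes at an unadjusted p under 0.01 was 2, and 0 were higher in the cold group in all settings run. It became 4 (6.90%) after median centring and 4 (6.90%) without a filter on dim probes, beside 3.6% and 3.86% of all genes lower at that threshold. It was 1 (1.72%) for Cy3 alone, beside 4.36% of all genes. It was 1 to 4 when an array was left out: 1 (1.72%, beside 1.81% of all genes) without cold replicate 3 (NSUN4) and 4 (6.90%, beside 2.61%) without control replicate 3 (TRMT10C, NSUN4, XPOT and TRMT112). The number past an adjusted p of 0.05 was 0 in all settings run, beside 0 to 4.84% of all genes. With the replicate number as a block it was 0 at p under 0.01, beside 4.23% of all genes lower, where NSUN4 changed by -0.41 (p 0.0170) and XPOT by -0.26 (p 0.0365). The numbers pair no samples by the labels, and the deviations of same-numbered arrays correlated at -0.30, 0.54, 0.096 and -0.19, so this block takes up degrees of freedom for a number only.

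The median change of the cytosolic synthetases was -0.82 after median centring and -0.37 in the value table, and -0.040 to 0.033 when an array was left out. That of the mitochondrial synthetases was -0.19 with the processed intensities, -0.33 after median centring and 0.095 in the value table, and -0.092 to -0.053 when an array was left out. That of the modification genes was -0.33 with the processed intensities, -0.47 after median centring, -0.13 for Cy3 alone, -0.14 in the value table and -0.13 with genes well above background on all arrays, and -0.11 to -0.070 when an array was left out. The all-gene median was -0.099 with the processed intensities, -0.43 after median centring and within 0.04 of 0 in the other settings. NSUN4 kept its direction in all 22 alternatives and XPOT likewise. The 4 cold arrays, and a reference channel well above background on 27.0 to 64.0% of spots, limit what single dim genes can show.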
